A study of Mus musculus with 6 samples.

Results

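The 9 genes described here belong to the osteoclast and to the RANK ligand axis that controls it, and they were taken by symbol from the 25703 genes of the count table. Of these, 6 are products of the osteoclast or its precursor (Acp5, Ctsk, Atp6v0d2, Oscar, Dcstamp and Tnfrsf11a) and 3 are signals that other cells send to it (Tnfsf11, Tnfrsf11b and Csf1). After a filter on low counts 7 of the 9 remained among the 19613 genes tested, and Oscar and Dcstamp did not. None of the 7 passed the adjusted threshold of 0.05 between the genotypes in the edgeR test used throughout, and DESeq2, an alternative, called 1 (Tnfrsf11b). The 3 signals and the tested products except Ctsk had positive log2 fold changes in Arid1a cKO, and Ctsk had a negative one. The intervals of Ctsk, Tnfrsf11b and Csf1 excluded 0 before adjustment, and those of the other tested genes, Tnfsf11 among them, included 0.

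Osteoclasts are large cells with many nuclei that dissolve bone and form by fusion of cells of the monocyte lineage. Stromal and bone cells make RANK ligand (Tnfsf11), which binds the receptor RANK (Tnfrsf11a) on precursors, and the growth factor CSF1, which keeps these precursors alive. Osteoprotegerin (Tnfrsf11b) is a secreted decoy receptor that takes up RANK ligand. Around a tooth, osteoclasts remodel the alveolar bone, and the dental follicle is a known source of these signals.

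The RNA came from the proximal incisor of mice aged 6 weeks on a C57BL/6 background and was sequenced in 6 libraries. The 3 control libraries came from Arid1a fl/fl mice and the 3 Arid1a cKO libraries from Gli1-CreER;Arid1a fl/fl mice, and the study compared them to learn what loss of Arid1a does to incisor homeostasis. Both groups carry the floxed allele, and the labels give both the same tamoxifen course from 1 month of age (1.5 mg for each 10 g of weight, injected on 3 days), so by genotype the groups differ in the CreER allele. Gli1-CreER recombines in cells that express Gli1, a marker of incisor mesenchymal stem cells. Cells that neither express Gli1 nor descend from cells that did are expected to keep Arid1a. The tissue was sequenced whole, and in such samples fewer cells of a type and less RNA per cell cannot be told apart. The labels do not state whether each library is its own animal, and p-values therefore reflect only the variation among these samples, which may in part be technical. Libraries are numbered within each genotype, as names only.

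Library totals ranged from 27300905 to 37908465 counts. Arid1a was lower in the Arid1a cKO libraries, at 222, 249 and 223 CPM (read counts scaled to library size) in controls 1 to 3 and 136, 139 and 145 CPM in Arid1a cKO libraries 1 to 3. All 9 listed markers of dental mesenchyme were measured, with summed levels of 16160 to 36674 CPM in control and 24401 to 25952 CPM in Arid1a cKO. Xist, transcribed from the inactive X chromosome, reached 3894 CPM in control replicate 3 and 2807 CPM in Arid1a cKO replicate 1, and the other 4 libraries had counts of Y-linked genes instead. Each genotype thus held 1 library with Xist and 2 without. Over all genes tested 482 (2.46%) were lower and 295 (1.5%) higher in Arid1a cKO at an edgeR adjusted p under 0.05, and the median log2 fold change was 0.0043.

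The osteoclast products spanned a wide range of levels. Per kilobase of exon, the mean level over the 6 libraries was highest for Ctsk, at 52.3 CPM per kb, followed by Csf1 at 13.9, Acp5 at 8.28 and Tnfrsf11b at 5.58 CPM per kb. Tnfrsf11a at 1.16, Tnfsf11 at 0.505, Atp6v0d2 at 0.493, Oscar at 0.104 and Dcstamp at 0.0572 CPM per kb followed. Between neighbours in this order the ranges over libraries were separate between Ctsk and Csf1 and between Tnfrsf11b and Tnfrsf11a, and overlapped for the other 6 neighbouring pairs. The fusion gene Dcstamp and the receptor gene Oscar, both close to the floor of detection, are defining markers of osteoclasts, as are Ocstamp and Calcr, which had at most 26 counts in a library. Of the genes measured well above that floor, Ctsk did not follow Acp5 over the libraries (given below), so the 9 genes are described by their roles and not as a measure of osteoclasts.

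**Figure D1:**
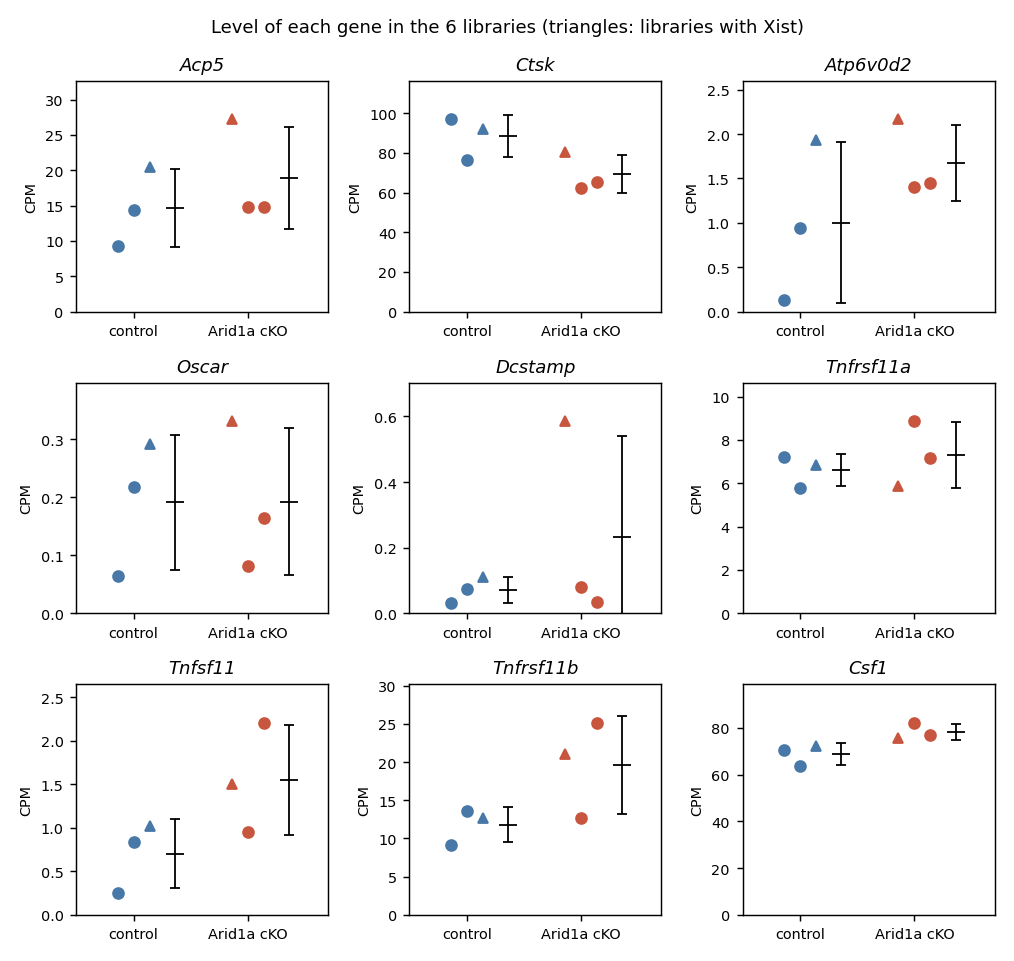
Level of each of the 9 genes in CPM (vertical axis, a separate linear scale per gene) in the 3 control and 3 Arid1a cKO libraries, with triangles for the libraries with Xist and bars for the mean and SD (n = 3, lower arm cut at 0). Groups overlap for 8 of the genes, and for Csf1 the Arid1a cKO libraries, from 75.8 to 82.2 CPM, lie above the controls, from 63.5 to 72.2 CPM.

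The upstream sequences of 2 products and 2 signals are shown because these 4 genes stand for the patterns described below: a product that varied between libraries, a product lower in Arid1a cKO on average, and the least and the most abundant signal. Each is the 250 bases before the RefSeq start on GRCm38.p6, printed 5′ to 3′ on the strand of the gene, and 6 of the 9 genes had an entry. Acp5 is shown at chr9:22135747-22135996 (minus strand), Ctsk at chr3:95498960-95499209 (plus strand), Tnfsf11 at chr14:78308044-78308293 (minus strand) and Csf1 at chr3:107760470-107760719 (minus strand). Capitals mark matches, on either strand, to core motifs of factors that act in osteoclasts or on these genes.
Acp5: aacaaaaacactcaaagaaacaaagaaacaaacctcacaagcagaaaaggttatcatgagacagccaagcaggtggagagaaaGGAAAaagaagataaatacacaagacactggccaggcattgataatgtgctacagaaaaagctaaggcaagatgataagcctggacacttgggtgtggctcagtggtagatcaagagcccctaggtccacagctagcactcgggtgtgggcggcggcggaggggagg
Ctsk: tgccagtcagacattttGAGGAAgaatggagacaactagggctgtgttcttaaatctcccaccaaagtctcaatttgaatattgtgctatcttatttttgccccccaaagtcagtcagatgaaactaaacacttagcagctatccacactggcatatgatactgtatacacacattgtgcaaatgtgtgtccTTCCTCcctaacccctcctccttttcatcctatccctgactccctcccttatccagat
Tnfsf11: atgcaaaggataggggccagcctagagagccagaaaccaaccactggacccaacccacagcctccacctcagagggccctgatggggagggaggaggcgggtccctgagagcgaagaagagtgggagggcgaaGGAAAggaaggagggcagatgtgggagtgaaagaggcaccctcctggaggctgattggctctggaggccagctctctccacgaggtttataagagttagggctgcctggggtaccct
Csf1: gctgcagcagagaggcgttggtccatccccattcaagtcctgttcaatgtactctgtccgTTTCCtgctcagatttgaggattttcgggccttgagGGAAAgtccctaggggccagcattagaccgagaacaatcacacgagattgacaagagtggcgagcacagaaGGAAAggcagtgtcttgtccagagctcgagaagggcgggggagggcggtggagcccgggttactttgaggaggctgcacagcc

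In these windows the capitals in Ctsk are the PU.1 core GAGGAA, found in 23.3% of 32851 promoter windows of this length. Those in Acp5, Tnfsf11 and Csf1 are the NFAT core GGAAA, found in 55.6% of windows. A PU.1 core that is followed by another A also holds the NFAT core. Of the 6 matched genes, 2 (Ctsk and Oscar) held the PU.1 core and 4 (Acp5, Csf1, Oscar and Tnfsf11) the NFAT core. The MITF motif CATGTG, in 12.3% of windows, was found in Oscar alone of the 6, and also before another RefSeq start of Acp5. The AP-1 motif TGANTCA (6.7% of windows) and the core AGGTCA bound by the vitamin D receptor (14.0%) were found in 0 of the 6 windows. For Acp5, which has 3 RefSeq starts, these counts use the outermost. A match is a description of the letters and not evidence of binding.

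Acp5 encodes tartrate-resistant acid phosphatase, the classical stain for osteoclasts (chromosome 9, 22126727 to 22135711, mm10, minus strand, protein coding). Its level was 9.34, 14.3 and 20.4 CPM in controls 1 to 3 and 27.2, 14.8 and 14.7 CPM in Arid1a cKO libraries 1 to 3. The groups overlapped, with the lowest value in control replicate 1 and the highest in Arid1a cKO replicate 1. Mean levels were 14.7 ± 5.55 CPM in control and 18.9 ± 7.19 CPM in Arid1a cKO (SD, n = 3), a difference smaller than the spread between libraries (log2 fold change 0.37, SE 0.361, 95% interval -0.51 to 1.25; edgeR quasi-likelihood test, adjusted p = 0.603). Without Arid1a cKO replicate 1 the log2 fold change was 0.0093, and without control replicate 3 it was 0.69. Acp5 overlaps 6530413G14Rik on the opposite strand, and whether the counting used strand is not given here, so their reads may not be separable.

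Atp6v0d2 encodes the d2 subunit of the vacuolar proton pump, which is enriched in osteoclasts and takes part in fusion (chromosome 4, 19876841 to 19922605, minus strand, protein coding). It was measured at 0.127, 0.942 and 1.94 CPM in controls 1 to 3 and at 2.17, 1.41 and 1.45 CPM in Arid1a cKO libraries 1 to 3, from 4 to 85 counts per library. Control replicate 1 stood lowest again, and control replicate 3 lay among the Arid1a cKO values. The log2 fold change was 0.76 with a 95% interval of -0.97 to 2.49 (edgeR adjusted p = 0.588). Leaving out control replicate 1 gave 0.23, and leaving out control replicate 3 gave 1.68.

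Ctsk encodes cathepsin K, the protease with which osteoclasts cut bone collagen, and fibroblasts and periosteal cells are also known to express it (chromosome 3, 95499256 to 95509362, plus strand, protein coding). Its level was 97.0, 76.6 and 92.2 CPM in controls 1 to 3 and 80.3, 62.5 and 65.6 CPM in Arid1a cKO libraries 1 to 3. The groups overlapped only through Arid1a cKO replicate 1, which lay above control replicate 2. Mean levels were 88.6 ± 10.7 and 69.4 ± 9.50 CPM (SD, n = 3), 1.28-fold lower in Arid1a cKO (log2 fold change -0.35, SE 0.121, 95% interval -0.64 to -0.07). This difference did not pass after adjustment (edgeR adjusted p = 0.151). It kept its sign in all 18 alternative settings, from -0.47 to -0.27 on the log2 scale, with adjusted p from 0.0672 to 0.339 by the edgeR, limma and DESeq2 fits.

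Oscar, a collagen receptor that costimulates osteoclast formation (chromosome 7, 3609813 to 3616157, minus strand, protein coding), was at the floor of detection. It had 2, 6 and 8 counts in controls 1 to 3 and 13, 3 and 5 counts in Arid1a cKO libraries 1 to 3. Dcstamp, a membrane protein needed for the fusion of osteoclast precursors (chromosome 15, 39745930 to 39760938, plus strand, protein coding), had 1, 2 and 3 counts in controls 1 to 3 and 23, 3 and 1 counts in Arid1a cKO libraries 1 to 3. The Dcstamp counts of Arid1a cKO thus came mostly from replicate 1, and its replicate 3 equalled the lowest control. With no filter, edgeR adjusted p-values were 0.979 for Oscar and 0.435 for Dcstamp, so no difference was detectable at this depth.

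Tnfrsf11a encodes RANK, the receptor through which RANK ligand acts (chromosome 1, 105780718 to 105847981, plus strand, protein coding). Its level was 7.20, 5.76 and 6.83 CPM in controls 1 to 3 and 5.86, 8.88 and 7.19 CPM in Arid1a cKO libraries 1 to 3. The groups overlapped, and Arid1a cKO replicate 2 was highest. The log2 fold change was 0.15 with a 95% interval of -0.26 to 0.56 (edgeR adjusted p = 0.679). Without Arid1a cKO replicate 2 its sign turned, at -0.019.

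Among the signals, Tnfsf11 encodes RANK ligand itself (chromosome 14, 78277445 to 78308043, minus strand, protein coding). Its level was low in every library, at 0.255, 0.834 and 1.02 CPM in controls 1 to 3 and 1.50, 0.947 and 2.21 CPM in Arid1a cKO libraries 1 to 3, from 8 to 67 counts. The groups overlapped through Arid1a cKO replicate 2, which lay below control replicate 3. Mean levels were 0.704 ± 0.400 and 1.55 ± 0.633 CPM (SD, n = 3), a fitted 2.21-fold higher level in Arid1a cKO (log2 fold change 1.15, SE 0.510, 95% interval -0.04 to 2.34; edgeR adjusted p = 0.244). Without control replicate 1 the log2 fold change was 0.74, and without Arid1a cKO replicate 3 it was 0.82.

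Tnfrsf11b, the osteoprotegerin gene (chromosome 15, 54250619 to 54278484, minus strand, protein coding), was measured at 9.18, 13.6 and 12.7 CPM in controls 1 to 3 and at 21.1, 12.6 and 25.2 CPM in Arid1a cKO libraries 1 to 3. Replicates 1 and 3 of Arid1a cKO were higher than all controls, and its replicate 2 lay within the control range. Mean levels were 11.8 ± 2.34 and 19.6 ± 6.40 CPM (SD, n = 3), 1.66-fold higher in Arid1a cKO (log2 fold change 0.73, SE 0.274, 95% interval 0.07 to 1.39; edgeR adjusted p = 0.189). DESeq2 gave an adjusted p of 0.0412, and it called 4.61% of its 18072 genes higher. Tnfrsf11b was the 1 gene of the 7 that any of the alternatives called, and limma-voom called 0.

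Csf1, the survival factor of the monocyte lineage (chromosome 3, 107741048 to 107760469, minus strand, protein coding), varied least of the 3 signals. Its level was 70.6, 63.5 and 72.2 CPM in controls 1 to 3 and 75.8, 82.2 and 77.1 CPM in Arid1a cKO libraries 1 to 3. The groups did not overlap. Mean levels were 68.8 ± 4.58 and 78.4 ± 3.39 CPM (SD, n = 3), 1.14-fold higher in Arid1a cKO (log2 fold change 0.19, SE 0.0682, 95% interval 0.03 to 0.35), which did not pass after adjustment (edgeR adjusted p = 0.160).

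Across the 7 tested genes 0 were called lower and 0 higher by edgeR, beside the 2.46% and 1.5% of all genes. An unadjusted edgeR p under 0.05 was reached by 3 of them (Ctsk, Tnfrsf11b and Csf1), beside 22% of all genes tested. Groups without overlap occurred in 1 of the 7, Csf1, on the higher side, where 13.8% of all genes lay, and in 0 of 7 on the lower side, where 15.3% lay. The 4 tested products had a median log2 fold change of 0.26, ranging from -0.35 to 0.76. The 3 signals had a median of 0.73, ranging from 0.19 to 1.15. The interval of each product but Ctsk included 0, and so did that of Tnfsf11. No test of the difference between products and signals was made.

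**Figure D2:**
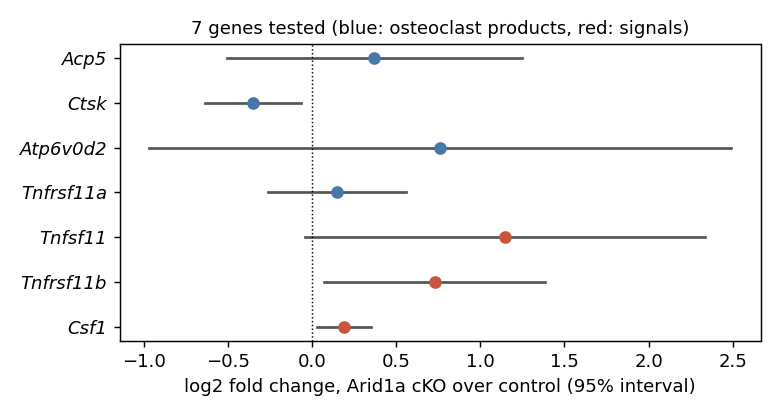
Log2 fold change of Arid1a cKO over control (horizontal axis) with its 95% interval for the 7 tested genes, products in blue and signals in red. The intervals are widest for Atp6v0d2 (-0.97 to 2.49) and Tnfsf11 (-0.04 to 2.34), and those of Ctsk, Tnfrsf11b and Csf1 exclude 0 before adjustment.

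RANK ligand and its decoy varied together. Their Pearson correlation of log2 CPM over the 6 libraries was 0.92, and 0.85 after the group means were taken out, as a description over libraries that also share depth and tissue composition. This was not particular to the pair. With Atp6v0d2 the values of Tnfsf11 were 0.88 and 0.84, and 49 of 11687 genes exceeded 0.95 with Tnfsf11. Its level rests on 8 to 67 counts. The ligand's CPM was 2.78%, 6.12% and 8.07% of the decoy's in controls 1 to 3 and 7.14%, 7.51% and 8.78% in Arid1a cKO libraries 1 to 3. Control replicate 1 was lowest, and control replicate 3 lay within the Arid1a cKO range. The mean log2 ratio was -4.28 ± 0.798 in control and -3.68 ± 0.155 in Arid1a cKO (SD, n = 3), so the difference of 0.59 was smaller than the spread of the controls. Without control replicate 1 the difference was 0.15. It gets no test because the genes were chosen with results known.

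The osteoclast products did not vary as 1 block. Acp5 and Atp6v0d2 followed each other over the 6 libraries (Pearson correlation of log2 CPM 0.87), and Acp5 and Ctsk did not (-0.09). After the group means were taken out, these values were 0.84 and 0.35. For Acp5 and Tnfrsf11a the values were -0.40 and, without the group means, -0.60. Both libraries with Xist, control replicate 3 and Arid1a cKO replicate 1, exceeded the other 4 in Acp5, Atp6v0d2, Oscar and Dcstamp, which is 4 of the 9 genes. Of the 7 tested genes it is 2, Acp5 and Atp6v0d2, beside 6.18% of all genes tested. Oscar and Dcstamp are near the floor of detection, with 8 counts against 6 and 3 counts against 3 in the nearest pair of libraries. The ratio of Arid1a cKO to control was also taken within each kind of library. For Acp5 the ratio was 1.33 between the libraries with Xist and 1.25 between the means of the others. For Ctsk it was 0.871 and 0.738, and for Tnfrsf11b 1.66 and 1.66. For Tnfsf11 it was 1.47 and 2.90, and for Csf1 1.05 and 1.19.

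Markers of other tissues moved with the same libraries. The summed level of the 14 dental epithelium markers was 1371, 1398 and 4788 CPM in controls 1 to 3 and 3203, 1548 and 2239 CPM in Arid1a cKO libraries 1 to 3. The sum of the 5 red cell markers was 111, 40.2 and 136 CPM in control and 342, 69.2 and 56.4 CPM in Arid1a cKO, in the same order. Both sums were highest in the libraries with Xist, as were the 4 genes above, and sex cannot be told apart from them in 2 libraries. The epithelial lead of control replicate 3 lay in the 7 enamel genes of that list, which summed to 729, 608 and 3735 CPM in control and 1701, 642 and 981 CPM in Arid1a cKO. The other 7 markers summed to 641, 790 and 1053 CPM in control and 1502, 906 and 1258 CPM in Arid1a cKO, where Arid1a cKO libraries 1 and 3 were highest. This division of the list was made after its values were seen. With a term for sex-linked expression the edgeR log2 fold change was 0.35 for Acp5 (adjusted p = 0.216) and -0.36 for Ctsk (adjusted p = 0.0865). With a term for dental epithelium markers it was 0.17 for Acp5 (adjusted p = 0.691) and -0.40 for Ctsk (adjusted p = 0.119). The part of blood in these levels was not tested.

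**Figure D3:**
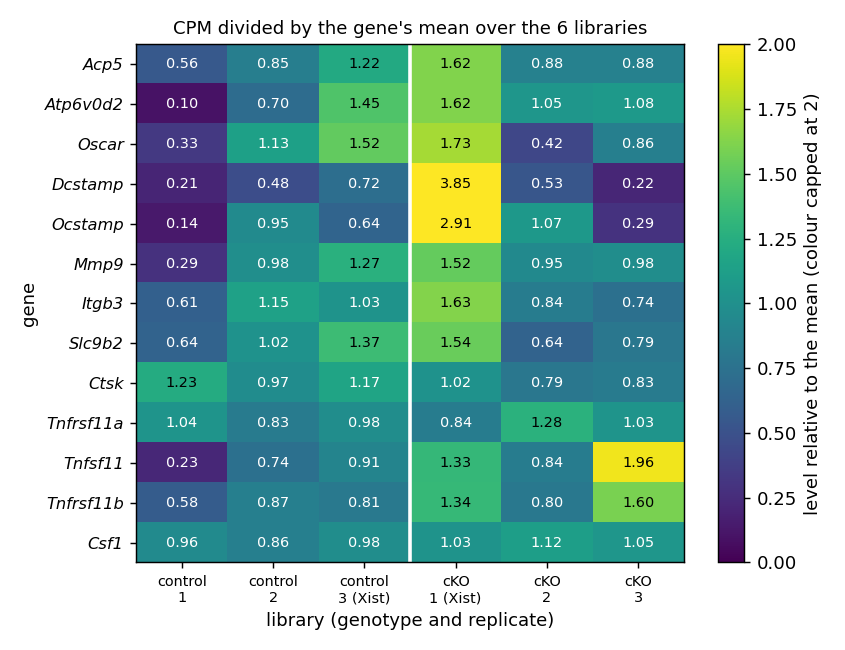
Level of the 9 genes and of Ocstamp, Mmp9, Itgb3 and Slc9b2 in each library (columns), each divided by the gene's own mean CPM over the 6 libraries (colour, capped at 2, with the value printed). Among the products shown, control replicate 1 is low in most, with 0.56 for Acp5 and 0.29 for Mmp9. It is not low in Ctsk, at 1.23, or Tnfrsf11a, at 1.04. Arid1a cKO replicate 1 is high in the same products, with 3.85 for Dcstamp and 2.91 for Ocstamp. Ocstamp, Mmp9, Itgb3 and Slc9b2 were picked from the 18 other listed osteoclast genes and not by the naming rule. Not all of that list follows this order: Car2 had 53.7 CPM in control replicate 1 and 40.0 CPM in Arid1a cKO replicate 1.

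The other genes of osteoclast function showed the same absence of calls. Of 18 listed genes 15 were tested, with a median log2 fold change of -0.02. In either direction 0 were called by edgeR, DESeq2 or limma-voom. An unadjusted edgeR p under 0.05 was reached by 1, beside 22% of all genes tested. Those with the smallest p were Car2, the carbonic anhydrase that supplies protons (log2 fold change -0.21, edgeR adjusted p = 0.165), Snx10 (0.21, adjusted p = 0.250) and the podosome scaffold Sh3pxd2a (-0.18, adjusted p = 0.286). Mmp9, a gelatinase of osteoclasts named here after its values were seen, was measured at 5.83, 20.0 and 25.8 CPM in controls 1 to 3 and 31.0, 19.4 and 20.0 CPM in Arid1a cKO libraries 1 to 3. This is the order of Acp5 at both ends, lowest in control replicate 1 and highest in Arid1a cKO replicate 1. Nfatc1, the master transcription factor of osteoclast formation, had a log2 fold change of -0.16 (edgeR adjusted p = 0.403) and the proton pump subunit Tcirg1 one of -0.02 (adjusted p = 0.895), both likewise named after their values were seen.

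Inside the cell, RANK signals through TRAF adaptors and NF-kappaB. Of 22 such genes 0 were called by edgeR, with a median log2 fold change of 0.02. An unadjusted p under 0.05 was reached by 7, beside 22% of all genes tested. DESeq2 called Gab2 lower and Jun higher, beside 1108 lower and 834 higher of its 18072 genes, and limma-voom called 0. The smallest p-values belonged to the adaptor Gab2 (-0.25, edgeR adjusted p = 0.0792), the kinase Chuk (-0.23, adjusted p = 0.103) and the adaptor Traf2 (0.23, adjusted p = 0.173). Of 10 osteoclast transcription factors and repressors 0 were called by edgeR, DESeq2 or limma-voom, with 4 at an unadjusted edgeR p under 0.05 (median log2 fold change 0.05). Mitf had a log2 fold change of -0.35, Prdm1 one of -0.29 and Jdp2 one of -0.24, with edgeR adjusted p of 0.0985, 0.100 and 0.196.

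Osteoclasts share their acidifying and lysosomal genes with other cells. Of 21 proton pump subunits 20 were tested and 0 called by edgeR, DESeq2 or limma-voom, with 3 at an unadjusted edgeR p under 0.05 (median log2 fold change 0.03). These were Atp6v1g2 (-0.38), Atp6v1a (-0.16) and Atp6v1b1 (0.38), with edgeR adjusted p of 0.166, 0.175 and 0.211. Of 12 lysosomal cathepsins, phosphatases and membrane proteins 0 were called by edgeR and limma-voom (median log2 fold change 0.0074). Of these, 2, Lamp2 and Ctso, had an unadjusted p under 0.05 and were called lower by DESeq2. Over all genes tested 22% had an unadjusted edgeR p under 0.05, and DESeq2 called 1108 of its 18072 genes lower. Lamp2, a lysosomal membrane protein, had a log2 fold change of -0.33 (edgeR adjusted p = 0.0740), Ctso one of -0.36 (0.0749) and Ctsb one of -0.17 (0.363). Atp6v1g2 overlaps Nfkbil1, and Ctsb overlaps Fdft1, on the opposite strand.

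Genes of the monocyte lineage, from which osteoclasts form, had positive log2 fold changes without passing. Over all genes tested 49.2% had a negative log2 fold change, and all 14 macrophage markers were positive (median 0.33). Of these 14 markers 0 were called by edgeR, DESeq2 or limma-voom. An unadjusted edgeR p under 0.05 was reached by 2, beside 22% of all genes tested. Their summed levels were 597 to 838 CPM in control and 745 to 1101 CPM in Arid1a cKO. The smallest p-values were those of the clearance receptor Mertk (log2 fold change 0.34, edgeR adjusted p = 0.146), Adgre1 (0.50, 0.226) and Aif1 (0.50, 0.238). Of 11 genes of the ITAM pathway, which costimulates RANK, 10 were positive and 0 called by edgeR, DESeq2 or limma-voom, with 1, Syk, at an unadjusted edgeR p under 0.05 (median log2 fold change 0.40). Syk, its kinase, was measured at 13.8, 13.5 and 13.2 CPM in controls 1 to 3 and 28.3, 17.1 and 15.3 CPM in Arid1a cKO libraries 1 to 3 (log2 fold change 0.58, edgeR adjusted p = 0.198). Its groups did not overlap. Of the 11 genes 2 were separate on the higher side, where 13.8% of all genes lay. The adaptor Tyrobp had a log2 fold change of 0.60 (edgeR adjusted p = 0.247) and Blnk one of -0.38 (0.260). The part of a different number of macrophages in the levels of Csf1 and the osteoclast genes was not tested.

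Il34, the other ligand of the CSF1 receptor, rose. It was measured at 0.542, 0.761 and 0.767 CPM in controls 1 to 3 and at 1.78, 1.38 and 1.75 CPM in Arid1a cKO libraries 1 to 3. These levels are low, from 17 to 70 counts per library, and Il34 was not tested under the filter of 1 CPM in all libraries. The groups did not overlap, and the log2 fold change was 1.25 (SE 0.254, 95% interval 0.66 to 1.83; edgeR adjusted p = 0.0397). The call was lost when each of the 6 libraries was left out in turn (edgeR adjusted p from 0.0583 to 0.122), and with a term for dental epithelium markers, where the log2 fold change was 1.17 (adjusted p = 0.0608). Il34 overlaps Gm15894 and Gm15895 on the opposite strand. The receptor gene Csf1r was at 121, 90.4 and 110 CPM in controls 1 to 3 and 158, 119 and 118 CPM in Arid1a cKO libraries 1 to 3, which overlap (log2 fold change 0.29, edgeR adjusted p = 0.301).

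Of 26 listed regulators and partners of RANK ligand, RANK and osteoprotegerin, 21 were tested. Of these 2 fell and 0 rose by edgeR, beside 2.46% and 1.5% of all genes (median log2 fold change -0.13). An unadjusted p under 0.05 was reached by 8, beside 22% of all genes tested. With the term for sex-linked expression 3 fell, the third being the receptor Lgr4, beside 817 of all 19613 genes tested. Vdr, the vitamin D receptor, which raises RANK ligand in osteoblasts, fell from 155, 155 and 128 CPM in controls 1 to 3 to 57.8, 80.0 and 76.6 CPM in Arid1a cKO libraries 1 to 3. The groups were separate, and the level was 2.04-fold lower (log2 fold change -1.03, SE 0.138, edgeR adjusted p = 0.0162). Wnt5a, a secreted ligand known to raise RANK in osteoclast precursors through Ror2, fell from 394, 313 and 305 CPM to 181, 234 and 213 CPM, in the same order of libraries. Its groups did not overlap either, and the level was 1.61-fold lower (log2 fold change -0.69, SE 0.129, edgeR adjusted p = 0.0341). RANK ligand itself overlapped between the genotypes, as given above, and its relation to Vdr and Wnt5a was not tested.

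These calls depended on which library was left out. The Vdr call was lost without control replicate 1 (edgeR adjusted p = 0.0623), control replicate 2 (0.0504) or Arid1a cKO replicate 3 (0.0552). The Wnt5a call was lost without any of the libraries except Arid1a cKO replicate 2, with edgeR adjusted p of up to 0.108. Wnt5a overlaps Gm2670 on the opposite strand. Among the regulators that did not pass, Pthlh, which raises RANK ligand during tooth eruption, had a log2 fold change of 0.35 (edgeR adjusted p = 0.0687). Its receptor Pth1r had one of -0.23 (0.0849).

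**Figure D4:**
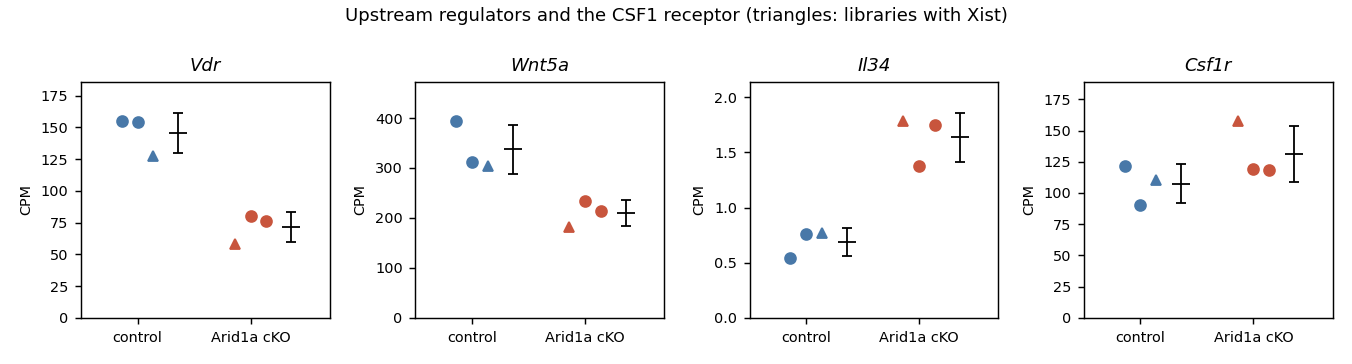
Level in CPM (vertical axis, linear, a separate scale per gene) of Vdr, Wnt5a, Il34 and Csf1r in the 3 control and 3 Arid1a cKO libraries, with triangles for the libraries with Xist and bars for the mean and SD (n = 3). Vdr (128 to 155 against 57.8 to 80.0 CPM) and Wnt5a (305 to 394 against 181 to 234 CPM) are lower in Arid1a cKO without overlap, Il34 is higher without overlap, and Csf1r overlaps.

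Markers of the cells that could send these signals also differed. Of 8 dental follicle markers 2 fell and 0 rose by edgeR, beside 2.46% and 1.5% of all genes. They were Fmod (log2 fold change -1.56, edgeR adjusted p = 0.00919) and Aspn (-0.66, 0.0376; overlapped by Cenpp on the opposite strand), and the summed level was 1920 to 1964 CPM in control and 1161 to 1319 CPM in Arid1a cKO. Fmod held most of that sum in the control libraries, but not in the Arid1a cKO libraries. Without it, a step added after the values were seen, the other 7 markers summed to 540 to 794 CPM in control and 629 to 958 CPM in Arid1a cKO, which overlap, so the lower sum is that of Fmod. DESeq2 called 3 of the 8 lower (Fmod, Aspn and Moxd1) and 2 higher (Postn and Pthlh), beside 1108 lower and 834 higher of its 18072 genes. For Postn edgeR gave a log2 fold change of 0.56 (adjusted p = 0.207). Bone cell markers, of which 9 of 10 were tested, had 1 higher, the osteocyte gene Sost (log2 fold change 1.54, edgeR adjusted p = 0.0156). Of these 9, 5 had negative log2 fold changes, down to -0.85 (median -0.16). Their summed levels were 1269 to 3215 CPM in control and 1504 to 1833 CPM in Arid1a cKO. Odontoblast markers had Sall1 higher (0.89, 0.0116) and Nes lower (-0.86, 0.0359) of 7, with sums of 1884 to 5303 CPM in control and 4142 to 5130 CPM in Arid1a cKO. Dental epithelium markers had Epcam higher (0.47, 0.0199) of 14, whose log2 fold changes ran from -1.31 to 1.57, with 4 negative. DESeq2 called 3 of these 14 higher and 0 lower, and limma-voom called 2 higher, beside 259 of all 19613 genes tested. Of the odontoblast markers DESeq2 called 3 higher and 1 lower, and of the bone cell markers 1 higher, beside its calls over all genes given above. The parts of follicle, bone cells and odontoblasts in the levels of the signals and of Ctsk were not tested.

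Of the remaining lists, dental mesenchyme markers (9 tested) and red cell markers (5 tested) had 0 called by edgeR. An unadjusted p under 0.05 was reached by 2 and 0 of them, beside 22% of all genes tested. DESeq2 called 1 of these mesenchyme markers, Lhx6, lower. Neutrophil markers, of which 5 of 8 are analysed here, were too low to test, with sums of 0.438 to 0.860 CPM in control and 0.264 to 17.9 CPM in Arid1a cKO, where Retnlg gave 652 counts in replicate 1. Calls on Fmod and Sall1 held without each library in turn, and those on Aspn, Sost, Nes and Epcam were each lost without 1 or more of the libraries, with edgeR adjusted p of up to 0.123. The Aspn call was also lost with the term for dental epithelium markers (log2 fold change -0.67, edgeR adjusted p = 0.0553).

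The genes whose pattern over the 6 libraries was most like that of Acp5, Ctsk, Tnfsf11, Tnfrsf11b and Csf1 were sought among 11687 genes with a mean of at least 5 CPM. For Acp5 they were Lcmt2 (Pearson correlation of log2 CPM 0.994), Tpra1 (0.992) and Grtp1 (0.985), and for Ctsk they were C9orf72 (0.995), Mafk (0.995) and Tmbim4 (0.990). For Tnfsf11 they included Snapc4 (0.991) and Zfp467 (0.991), and they were for Tnfrsf11b Eps8l2 (0.996), Tacc2 (0.990) and Zfp180 (0.990), and for Csf1 Ercc4 (0.993), Rptor (0.992) and Pttg1 (0.990). Between 22 and 58 genes exceeded 0.95 for each, so they are given as a description only, and for Tnfsf11 they rest on 8 to 67 counts. None of the listed osteoclast genes was among those named.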

How the data were processed

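Total RNA of 3 control and 3 Arid1a cKO libraries was read as single-end reads of 75 cycles, per the labels' protocols, from RNA with integrity numbers above 9.0. STAR 2.6.1d and Partek were used with mm10, per the submitters' processing notes. The annotation release, the kit and the use of strand are not given in these sources. The authors deposited estimated counts per gene, in part fractional, and a normalized signal table made from them, whose method these sources do not give. Library totals ranged from 27300905 to 37908465, so counting error limits only the low genes, and the spread between libraries limits the others.

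Estimated counts were rounded and filtered with filterByExpr of edgeR (minimum count 10), scaled by TMM (factors 0.961 to 1.04) and tested by quasi-likelihood (glmQLFit, robust, then glmQLFTest, two-sided, no covariates), with Benjamini-Hochberg adjustment over the 19613 genes tested. Each SE was derived from the fold change and the F statistic. CPM uses TMM-scaled library sizes, and exon lengths come from GENCODE M21. Software was edgeR 4.0.16, DESeq2 1.42.0 and limma 3.58.1 in R 4.3.3, with matplotlib 3.10.9 in Python 3.11.15. The count test was tested on simulated data. Alternatives were RLE and upper quartile normalization, DESeq2, limma-voom, limma on log2 of the authors' signal table (pseudocounts 1, 0.5 and 5), no filter, 1 CPM in all libraries, counts not rounded, terms for sex-linked expression and dental epithelium, and each library left out.

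The 9 genes and the 18 gene lists were chosen with earlier results of these data known. From each list every gene past the threshold was named, and otherwise the up to 3 of smallest p. For 5 of the genes the 3 most alike among genes with a mean of at least 5 CPM were added. Most other genes are said to be named after their values were seen or belong to a marker check. Calcr, Jun and Lgr4 were also named outside this rule. Replicate numbers follow accession order and only name libraries. Gene ends are printed as the deposited stop minus 1. Upstream sequences are from RefSeq. A result for 1 gene that the naming rule takes is left out.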

Additional observations from a re-analysis of the deposited data

How the results depend on the processing

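Of the 7 tested genes, 0 were called lower in all alternatives and 0 higher in all but DESeq2, which called 1 higher (Tnfrsf11b). The log2 fold change of Tnfrsf11a turned to -0.019 without Arid1a cKO replicate 2 (up to 0.28 with another library left out), and those of the near-identical globin genes Hba-a1 and Hbb-bs turned to -0.41 and -0.74 without Arid1a cKO replicate 1 (up to 1.08 and 1.18). The cause was not tested. Of the listed regulators and partners of RANK ligand, RANK and osteoprotegerin, 0 to 2 were called lower when each library was left out in turn. DESeq2 called 1 of them higher (Pthlh). The difference in log2 ratio of ligand to decoy was 0.59, against 0.53 in the authors' signal table, 0.49 with a prior count of 2, and 0.15 (without control replicate 1) to 0.92 (without control replicate 3) with a library left out. Over all genes DESeq2 called 1108 lower and 834 higher, against 482 and 295 with edgeR. Without control replicate 1, 2 or 3 edgeR called 104, 222 and 132 lower and 56, 130 and 55 higher. Without Arid1a cKO replicate 1, 2 or 3 it called 339, 267 and 98 lower and 193, 166 and 67 higher. With the term for sex-linked expression it called 817 lower and 455 higher. No paired analysis was possible because the replicate numbers follow accession order and the sample titles of the 2 groups share only 1 number. Counting depth limits Oscar, Dcstamp and, in part, Atp6v0d2, Tnfsf11 and Il34.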
